A study of Mus musculus with 8 samples.

Results

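Aminoacyl-tRNA synthetases were followed in a mouse acute myeloid leukemia line with and without Cop1. They were taken from the exon junction table as genes whose symbol is a 1-letter amino acid code followed by ars. A closing 1 or 2 was allowed, and Eprs, Farsa and Farsb were included. The search found 36 of 13378 genes, 20 cytosolic enzymes and 16 mitochondrial enzymes, whose symbols end in 2. A further mitochondrial enzyme, Mars2, was not analysed here. FT1CL cells grew in medium with interleukin-3 and came from bone marrow of a mouse aged 8 weeks with the genotype Cop1 cKO/Rosa26-Cre-ERT2, given 5-fluorouracil. They were transduced with a pMYs retrovirus that carries Trib1. The knockout group (4 libraries) was treated with 4-hydroxytamoxifen, which activates the Cre recombinase, and the wild-type group (4 libraries) was untreated. The labels call the wild-type group Cop1 +/+. Trib1 is over-expressed in every library, and the deletion and the drug changed together, so that their effects cannot be told apart. Nothing in the labels tells separate cultures from repeats of the same culture within a group, and p-values are relative to a library spread that may be technical only.

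Each synthetase joins an amino acid to the tRNAs that carry its codons' anticodons, and so sets up every step of protein synthesis. Animal cells keep separate nuclear genes for most cytosolic and mitochondrial synthetases, while Gars and Kars each give rise to both forms. Several cytosolic enzymes sit together in a multi-tRNA synthetase complex held by scaffold proteins, and the others work outside it. When amino acids run short, the kinase GCN2 phosphorylates eIF2alpha and the transcription factor ATF4 is made, which is known to act on many cytosolic synthetase genes through short sites called CAREs. The product of Cop1 is a ubiquitin ligase, which Tribbles proteins such as Trib1 bring to C/EBPα, a factor of granulocyte differentiation that is then degraded.

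Levels are junction reads per 1000000 junction reads (RPM), summed over the junctions of a gene, and depth was 17333302 to 22469109 reads in knockout libraries and 17811247 to 20981993 in wild-type libraries (exact permutation test, two-sided, p = 0.60). Fold changes are knockout minus wild type on the log2(RPM + 1) scale, with their standard errors (SE) and limma p-values adjusted over the 11003 genes tested; "fell" and "rose" are used of adjusted p-values under 0.05. Cop1 itself had 81.3, 70.3, 76.5 and 66.7 RPM in knockout libraries, against 159, 162, 166 and 162 RPM in wild-type libraries (log2 fold change -1.13, SE 0.08, adjusted p = 0.000491). Knockout library 4 stood apart from the other knockout libraries: 12 late neutrophil marker genes summed to 408 RPM there, and to 5025, 10513 and 4529 RPM in knockout libraries 1, 2 and 3, against at most 73.5 RPM in wild-type libraries. Of those markers 8 rose and 0 fell. Over all genes tested, 8.49% rose and 12.1% fell, and the counts of the other marker lists are to be read beside these shares. Retnlg, a secreted neutrophil protein, had 0 reads in every wild-type library, the granule gene Camp in knockout library 4, and the receptor gene Cxcr2 in wild-type libraries 2 and 4. Primary granule genes summed to 1988 to 3713 RPM in knockout and 433 to 2620 RPM in wild-type libraries (4 of 7 rose), and erythroid genes to 85.7 to 572 RPM in knockout and 396 to 634 RPM in wild-type libraries (2 of 6 fell). S phase genes summed to 2692 to 3224 RPM in knockout libraries and 4326 to 4667 RPM in wild-type libraries, and 10 of 16 fell. Mast cell and basophil markers were high in both groups, at 12260 to 17370 RPM in knockout libraries and 12299 to 14262 RPM in wild-type libraries, and 4 of 8 rose. T cell markers summed to 4.85 to 9.75 RPM in knockout libraries and 14.5 to 40.7 RPM in wild-type libraries, with no overlap. Every knockout library was also below every wild-type library in 15.4% of all genes tested. Of the T cell markers 3 of 7 were not in the table, and 1 of 3 tested fell. B cell markers summed to at most 2.83 RPM in knockout libraries and 3.38 RPM in wild-type libraries, with 5 of 7 not in the table. The part of these shifts in the synthetase results was not tested. In bulk RNA, fewer cells of a type and less RNA per cell cannot be told apart.

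The promoters of 5 synthetases that fell hold a CARE, searched as TGATGNAA on both strands between 250 bases before and 50 bases after the start, where a RefSeq promoter was matched (26 of 36 members, build GRCm38.p6). They are shown so that the site can be read. It was held by 5 of the 12 matched synthetases that fell and by 0 of the 14 matched ones not called. The 5 are all cytosolic, while of the 14 only Dars, Farsa, Kars, Qars and Sars are. The split thus partly follows compartment, and whether the CARE goes with the fall was not tested. That split rests on single libraries and on the scaling. Of these 5 genes 0 were called without knockout library 2 or wild-type library 2, 1 without knockout library 3, 2 without wild-type library 1, 3 or 4 or under TMM scaling, which sets genes against a trimmed mean of all, and 3 without knockout library 1. A match was held by 3.97% of the 32851 promoters searched. The sequences run 5′ to 3′ in the gene's direction from 150 bases before to 30 bases after the start, and capitals mark the CARE (TGATGNAA or its reverse complement) and the E-box CACGTG, a site of MYC and related factors.
Aars, chr8:111033692-111033871, plus strand: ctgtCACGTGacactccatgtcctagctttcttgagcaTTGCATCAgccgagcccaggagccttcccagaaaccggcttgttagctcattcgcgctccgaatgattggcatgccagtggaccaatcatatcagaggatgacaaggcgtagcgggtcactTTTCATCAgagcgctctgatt
Gars, chr6:55037851-55038030, plus strand: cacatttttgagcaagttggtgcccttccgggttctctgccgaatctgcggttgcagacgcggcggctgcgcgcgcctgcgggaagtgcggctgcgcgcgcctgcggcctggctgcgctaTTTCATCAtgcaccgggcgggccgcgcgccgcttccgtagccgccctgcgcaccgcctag
Iars, chr13:49681980-49682159, plus strand: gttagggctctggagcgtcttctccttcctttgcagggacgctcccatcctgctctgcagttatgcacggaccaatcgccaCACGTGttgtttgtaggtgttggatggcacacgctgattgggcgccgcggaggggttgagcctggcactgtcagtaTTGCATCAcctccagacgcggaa
Tars, chr15:11399629-11399808, minus strand: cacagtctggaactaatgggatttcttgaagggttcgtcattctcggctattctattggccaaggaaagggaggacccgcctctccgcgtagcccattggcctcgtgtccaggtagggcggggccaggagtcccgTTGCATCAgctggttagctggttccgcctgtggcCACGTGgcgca
Yars, chr4:129189753-129189932, plus strand: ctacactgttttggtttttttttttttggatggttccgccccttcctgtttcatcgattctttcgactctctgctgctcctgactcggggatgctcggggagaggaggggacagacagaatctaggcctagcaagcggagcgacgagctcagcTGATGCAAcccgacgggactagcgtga
The match began at position -112 and again at position 9 in Aars, at -30 in Gars, 7 in Iars, -15 in Tars and 3 in Yars, counted from 0 at the annotated start. The E-box was found in 5 matched promoters, those of Aars, Ears2, Farsb, Iars and Tars, and in 7.15% of all promoters, and these 5 were among the 12 that fell. Of them 1 was called without knockout library 2 or wild-type library 2, 2 without wild-type library 3 or 4, and 3 without knockout library 1 or 3 or wild-type library 1 or under TMM scaling. A palindromic motif of the factor NRF1 was found in 0 matched promoters and in 0.971% of all. A match describes letters in a window and not a bound site, and 10 members had no promoter to search here. Among these were Lars, Rars and Vars, which fell, and Cars, Hars, Nars and Wars, which were not called.

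Knockout cells had less synthetase RNA in both compartments. Of 35 synthetases tested, 16 fell and 0 rose, 11 of 20 cytosolic and 5 of 15 mitochondrial ones, where 12.1% of all genes tested fell and 8.49% rose. All 35 fold changes were below 0, with a median of -0.45 for the cytosolic and -0.44 for the mitochondrial enzymes and of -0.07 over all genes tested. In 19 of the 35, 11 cytosolic and 8 mitochondrial, every knockout library was below every wild-type library, which held for 15.4% of all genes tested. The remaining member, Pars2 (mitochondrial prolyl-tRNA synthetase, chromosome 4, 106651069 to 106655282), was under the limit of a mean of 1 RPM, with 7, 1, 8 and 2 reads in knockout libraries and 9, 2, 8 and 7 reads in wild-type libraries. Under TMM scaling 7 cytosolic and 4 mitochondrial synthetases fell (8.83% of all genes), and 52.9% of all calls were higher in knockout, against 41.3% with library totals; the median over all genes was 0.07 lower with library totals. The calls lost under TMM were Iars, Yars, Aars, Eprs and Nars2 (adjusted p 0.0515, 0.0757, 0.0505, 0.0953 and 0.0804), and all 35 fold changes were still below 0. Without knockout library 2 or wild-type library 2 the cytosolic count was 4, without knockout library 3 it was 5, without wild-type library 3 it was 6, and without wild-type library 1 or 4 it was 7. The mitochondrial count was 2 without knockout library 1 or wild-type library 2, 3 or 4, and 3 without knockout library 2 or wild-type library 1. Without knockout library 4, 14 cytosolic and 6 mitochondrial synthetases fell. Without both libraries numbered 4, 13 cytosolic and 5 mitochondrial synthetases fell (14.1% of all genes), and 0 rose.

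**Figure D1:**
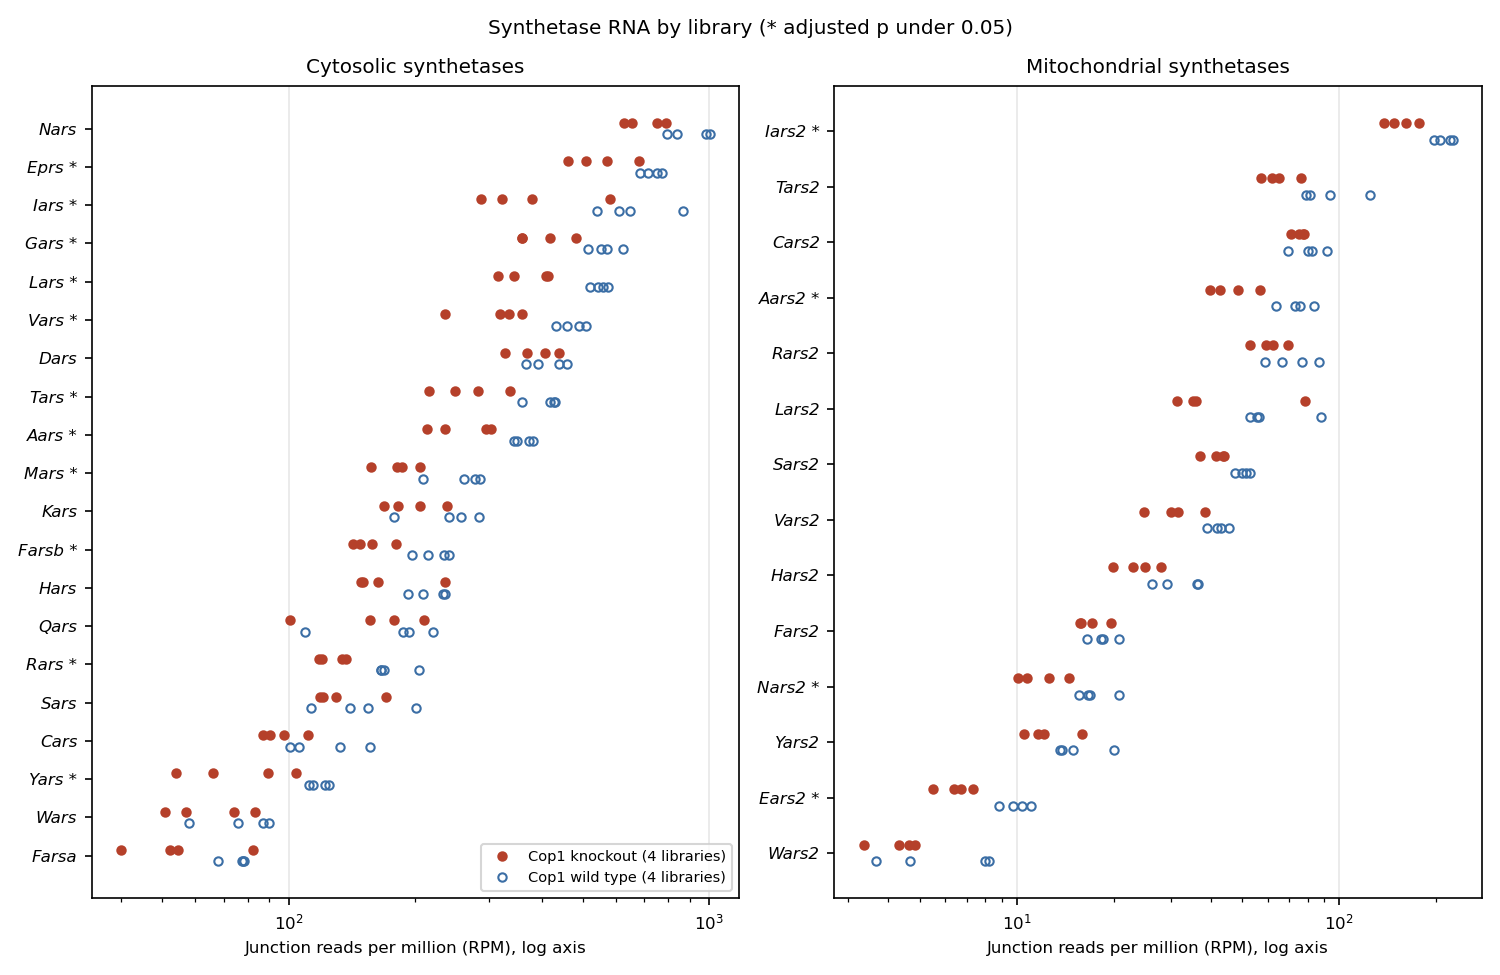
RNA of 34 synthetases by library, in junction RPM on a log axis, for 4 knockout libraries (filled red) and 4 wild-type libraries (open blue); an asterisk marks an adjusted p under 0.05. Genes run by level within each compartment, and in 18 of the 34 every filled point lies left of every open point.

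Summed over the 20 cytosolic enzymes, knockout libraries held 5537, 4652, 4463 and 5711 RPM, against 6302, 6894, 7320 and 7140 RPM in wild-type libraries. The groups did not overlap, and the knockout mean was 73.6% of the wild-type mean (5091 ± 625 against 6914 ± 444 RPM, SD, n = 4 each). The 16 mitochondrial enzymes summed to 626, 585, 608 and 704 RPM in knockout libraries, against 789, 798, 835 and 915 RPM in wild-type libraries, 75.6% of the wild-type mean, again with no overlap. Knockout library 4 had the highest sum of its group in both compartments, and wild-type library 4 the highest mitochondrial sum. Gene by gene, 15, 16, 17 and 13 of the 20 cytosolic enzymes lay below all 4 wild-type libraries in knockout libraries 1, 2, 3 and 4, and so did 10, 12, 12 and 11 of the 15 mitochondrial ones. The share of all genes that a single knockout library holds below all wild-type libraries is not given here. These counts are thus a description without a background. The median log2 ratio of the cytosolic enzymes to the wild-type mean was -0.38, -0.54, -0.59 and -0.29 in knockout libraries 1 to 4, and -0.11, 0.03, 0.08 and 0.05 in wild-type libraries 1 to 4.

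**Figure D2:**
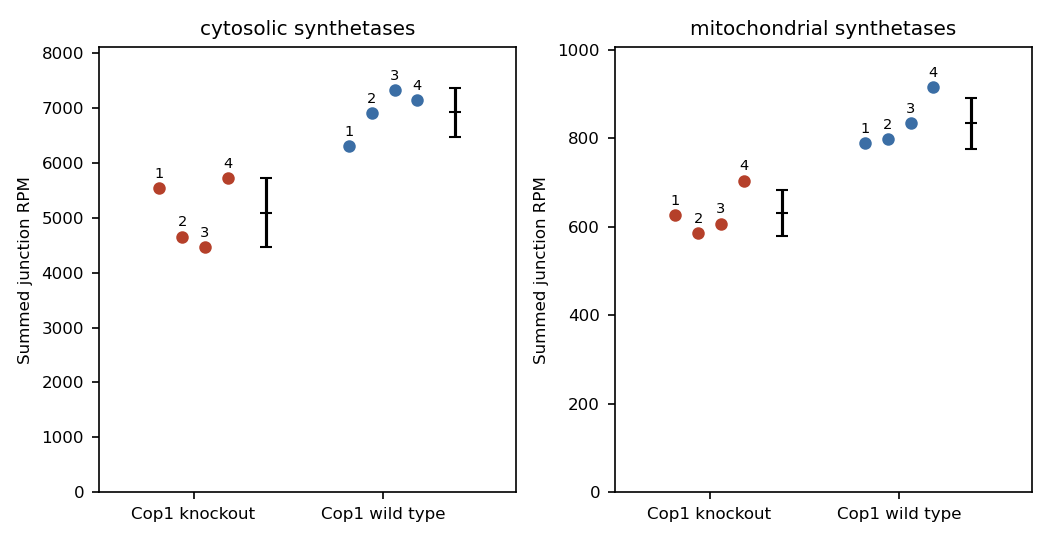
Summed junction RPM of the 20 cytosolic (left) and 16 mitochondrial (right) synthetases in each library, with its replicate number, knockout before wild type; the bars to the right give the mean and SD over 4 libraries. The highest knockout sum was 5711 RPM and the lowest wild-type sum 6302 RPM for cytosolic enzymes, and 704 and 789 RPM for mitochondrial ones.

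Among the 8 enzymes of the multi-tRNA synthetase complex, Iars, Lars, Mars, Rars and Eprs fell. Iars, the isoleucyl enzyme (chromosome 13, 49682100 to 49734267, plus strand), had 378, 322, 287 and 580.3 RPM in knockout libraries, against 541, 609, 649 and 867 RPM in wild-type libraries. Knockout library 4 was above wild-type library 1, so the groups overlapped, although each knockout library was below the wild-type library of the same number. Its log2 fold change of -0.80 (SE 0.23, adjusted p = 0.0426) was the lowest of all synthetases, and the call held only without knockout library 4 among the libraries left out in turn (adjusted p 0.0566 to 0.108 without each of the others). Lars, the leucyl enzyme (chromosome 18, 42202298 to 42262194, minus strand), had 409.6, 343, 315 and 413 RPM in knockout libraries, against 521, 575, 559 and 545 RPM in wild-type libraries. The groups lay far apart (log2 fold change -0.58, SE 0.10, adjusted p = 0.00768), and this call held without each of the 8 libraries. Mars, the methionyl enzyme (chromosome 10, 127296221 to 127311786, minus strand), had 186, 181, 157 and 205 RPM in knockout libraries, against 209, 278, 262 and 285 RPM in wild-type libraries. Its groups came within a few RPM of each other (log2 fold change -0.50, SE 0.12, adjusted p = 0.0243), and the call ended without each library other than knockout library 4 and wild-type library 1 (adjusted p 0.0539 to 0.0695).

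Rars, the arginyl enzyme (chromosome 11, 35808381 to 35834506, minus strand), had 137, 118, 120.3 and 134 RPM in knockout libraries, against 169, 166, 204 and 166 RPM in wild-type libraries. It varied little among knockout libraries (log2 fold change -0.46, SE 0.10, adjusted p = 0.0137) and was called without each library in turn. Eprs, a fused enzyme that charges both glutamate and proline tRNAs (chromosome 1, 185363044 to 185428360, plus strand), had 679.6, 508, 462 and 573 RPM in knockout libraries, against 683, 751, 771 and 716 RPM in wild-type libraries. Knockout library 1 nearly met wild-type library 1 (log2 fold change -0.41, SE 0.12, adjusted p = 0.0429), and the call ended without each library other than knockout libraries 1 and 4 (adjusted p 0.0703 to 0.108). The other 3 enzymes of the complex were not called. Dars, the aspartyl enzyme, averaged 385 ± 48.6 RPM in knockout and 414 ± 42.1 RPM in wild-type libraries (SD, n = 4 each) and had the fold change nearest to 0 of the cytosolic enzymes (-0.11, SE 0.11, adjusted p = 0.545). Kars, the lysyl enzyme, averaged 199 ± 30.7 and Qars, the glutaminyl enzyme, 161 ± 45.8 RPM in knockout libraries, against 239.9 ± 45.0 and 178 ± 47.7 RPM in wild-type libraries (adjusted p 0.290 and 0.758). Without knockout library 2 the fold change of Qars was 0.07, and without both libraries numbered 4 that of Dars was 0.02.

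Outside the complex, Aars, Farsb, Gars, Tars, Vars and Yars fell, 6 of 12. Vars, the valyl enzyme (chromosome 17, 35000987 to 35016322, plus strand), had 319, 334, 235 and 359 RPM in knockout libraries, against 433, 490.4, 459 and 508 RPM in wild-type libraries (log2 fold change -0.61, SE 0.13, adjusted p = 0.0155). All knockout libraries were below all wild-type libraries, and the call held without each library. Tars, the threonyl enzyme (chromosome 15, 11382301 to 11399665, minus strand), had 282, 249, 216 and 336 RPM in knockout libraries, against 358, 430.4, 428 and 418 RPM in wild-type libraries (log2 fold change -0.61, SE 0.14, adjusted p = 0.0182). Its call ended without knockout library 2 or wild-type library 2 (adjusted p 0.0524 and 0.0539). Yars, the tyrosyl enzyme (chromosome 4, 129189760 to 129219607, plus strand), had 89.3, 54.1, 66.2 and 104 RPM in knockout libraries, against 112, 122, 125 and 114 RPM in wild-type libraries (log2 fold change -0.63, SE 0.19, adjusted p = 0.0491). The groups did not overlap, and the call held only without knockout library 4 (adjusted p 0.0640 to 0.125 without each other library). With the replicate number as a block, Yars (adjusted p = 0.0512) and Eprs (0.0593) were not called.

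Gars, the glycyl enzyme (chromosome 6, 55038007 to 55079500, plus strand), had 481, 358, 358 and 419 RPM in knockout libraries, against 515, 573, 623 and 554 RPM in wild-type libraries (log2 fold change -0.49, SE 0.11, adjusted p = 0.0188). Its groups did not overlap, and its call ended without knockout library 2 or 3 or wild-type library 2 (adjusted p 0.0525 to 0.0558). Aars, the alanyl enzyme (chromosome 8, 111033144 to 111057664, plus strand), had 294, 235, 213 and 303 RPM in knockout libraries, against 344, 373, 381 and 349.9 RPM in wild-type libraries (log2 fold change -0.48, SE 0.12, adjusted p = 0.0267). All 4 knockout libraries were below the wild-type ones, and the call ended without each library other than knockout libraries 1 and 4 (adjusted p 0.0525 to 0.0729) and under TMM scaling (0.0505). Phenylalanyl-tRNA synthetase is built from the Farsa and Farsb subunits, and only Farsb was called. Farsb (chromosome 1, 78417975 to 78488897, minus strand) had 158, 148, 142 and 179.9 RPM in knockout libraries, against 196, 214, 241 and 235 RPM in wild-type libraries (log2 fold change -0.50, SE 0.10, adjusted p = 0.0133), a call that held without each library. Farsa had 52.2, 39.98, 54.6 and 82.4 RPM in knockout libraries, against 68.1, 77.5, 78.4 and 77.9 RPM in wild-type libraries (log2 fold change -0.44, SE 0.20, adjusted p = 0.150). Knockout library 4 was above all wild-type libraries for Farsa, and whether the subunits differ from each other was not tested.

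The 5 other enzymes outside the complex were not called. Nars, the asparaginyl enzyme, had 789, 628, 657 and 752 RPM in knockout libraries, against 839, 1005, 982 and 794 RPM in wild-type libraries. Its groups did not overlap, and its adjusted p was 0.0512 (log2 fold change -0.36, SE 0.11). For Cars (cysteinyl) the log2 fold change was -0.34 and for Hars (histidyl) it was also -0.34 (adjusted p 0.148 and 0.155), while Wars (tryptophanyl) had -0.23 and Sars (seryl) -0.16 (adjusted p 0.444 and 0.599). Some junctions hold at most 6 reads in a library where the gene's other junctions predict at least 100. Leaving out such junctions (88 of 629 in 18 synthetases) gave a fold change of 0.05 for Sars and a call for Cars and Kars (adjusted p 0.0480 and 0.0139). Nars, which holds no such junction, kept its fold change and was also called in that setting (adjusted p 0.0364). So were the mitochondrial Vars2 and Sars2, again without such junctions (adjusted p 0.0377 and 0.0388). For Nars, Vars2 and Sars2 only the fit over all genes had changed. With these junctions left out, 14 cytosolic and 9 mitochondrial synthetases were called lower and 0 higher, where 16.6% of all genes fell. Farsa, in which 2 of 14 junctions were left out, then had a fold change of -0.24 (adjusted p = 0.277). It averaged 26.7 ± 6.62 RPM in knockout and 31.2 ± 2.35 RPM in wild-type libraries (SD) on the junctions kept.

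**Figure D3:**
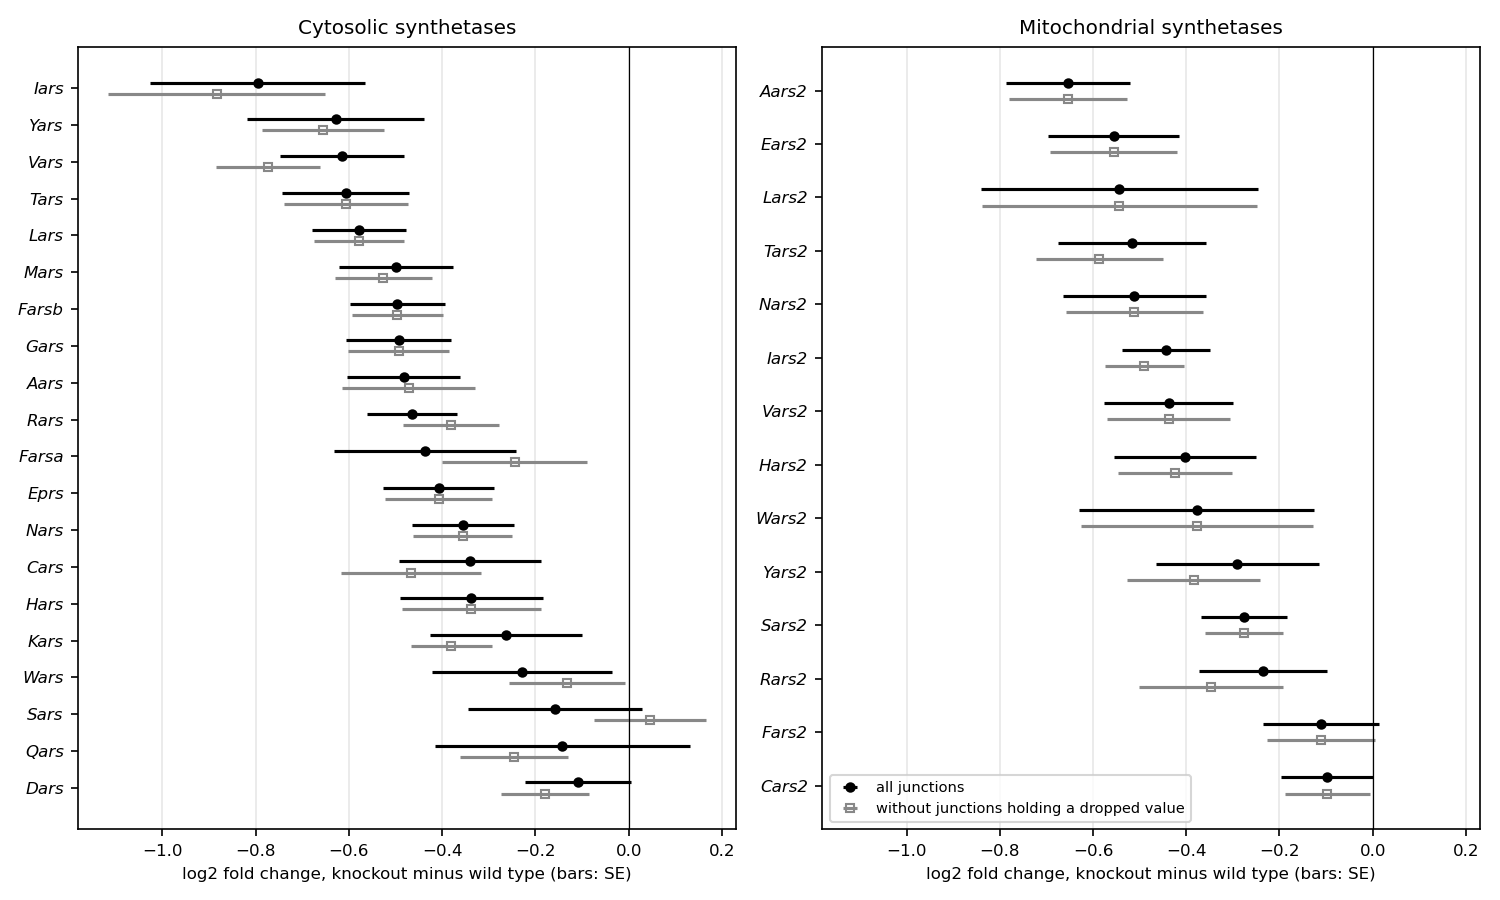
log2 fold change, knockout minus wild type, of the same 34 synthetases with its SE, over all junctions (filled) and without junctions that hold a dropped value (open squares). All filled points lie below 0, from -0.80 for Iars to -0.10 for Cars2, and of the open ones only Sars lies above it, at 0.05.

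Aars2, Ears2, Nars2 and Iars2 were among the mitochondrial enzymes that fell. Iars2, the isoleucyl enzyme (chromosome 1, 185284726 to 185329396, minus strand), had 162, 148, 138 and 177 RPM in knockout libraries, against 221, 196, 225 and 206 RPM in wild-type libraries (log2 fold change -0.44, SE 0.09, adjusted p = 0.0150). Aars2, the alanyl enzyme (chromosome 17, 45506841 to 45520843, plus strand), had 56.7, 39.9, 42.8 and 48.4 RPM in knockout libraries, against 83.5, 73.1, 63.9 and 75.8 RPM in wild-type libraries (log2 fold change -0.65, SE 0.13, adjusted p = 0.0129). In both genes the groups were apart, and both calls held without each library. Ears2, the glutamyl enzyme (chromosome 7, 122037213 to 122067263, minus strand), had 6.73, 5.48, 7.33 and 6.41 RPM in knockout libraries, against 8.82, 9.71, 11.1 and 10.4 RPM in wild-type libraries (log2 fold change -0.56, SE 0.14, adjusted p = 0.0267). Its call ended without knockout library 1 or 2 or wild-type library 2, 3 or 4 (adjusted p 0.0562 to 0.0694). Nars2, the asparaginyl enzyme (chromosome 7, 96951505 to 97064758, plus strand), had 10.7, 10.1, 14.6 and 12.6 RPM in knockout libraries, against 15.6, 20.7, 16.9 and 16.6 RPM in wild-type libraries (log2 fold change -0.51, SE 0.15, adjusted p = 0.0471). It held the call only without knockout library 3 (adjusted p 0.0517 to 0.120 without each other library) and lost it with the replicate number as a block (0.0618).

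The other 10 mitochondrial enzymes tested were not called. Lars2, the leucyl enzyme, had 31.4, 36.0, 35.2 and 78.5 RPM in knockout libraries, against 55.7, 52.8, 56.3 and 87.9 RPM in wild-type libraries (log2 fold change -0.54, SE 0.30, adjusted p = 0.232). Library 4 was far above the other 3 in each group, and each knockout library was below the wild-type library of the same number. With the replicate number as a block Lars2, Tars2 and Vars2 fell (adjusted p 0.0268, 0.0394 and 0.0458), and the block called 9 cytosolic and 7 mitochondrial synthetases lower and 0 higher, where 15.7% of all genes fell. Tars2 (threonyl), Vars2 (valyl) and Sars2 (seryl) had no overlap between groups and adjusted p-values of 0.0511, 0.0558 and 0.0657. The log2 fold changes of the 6 others ran from -0.40 in Hars2 (histidyl, adjusted p = 0.0967) to -0.10 in Cars2 (cysteinyl), which averaged 75.2 ± 3.10 RPM in knockout and 80.9 ± 9.14 RPM in wild-type libraries (SD, n = 4 each). Wars2 (tryptophanyl, -0.38), Yars2 (tyrosyl, -0.29), Rars2 (arginyl, -0.24) and Fars2 (phenylalanyl, -0.11) lay between Hars2 and Cars2.

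Class I and class II synthetases, which differ in the fold of their catalytic domain, gave like counts, 8 of 17 tested members lower in class I and 7 of 17 in class II, with medians of -0.44 and -0.44; Eprs holds a domain of each and was left out of both. Levels were compared between genes per junction, as the median RPM over a gene's junctions, rare ones included and those with a dropped value left out. On that scale Nars (56.8), Gars (29.7), Dars (27.6) and Eprs (20.3) led, and mitochondrial enzymes ran from 0.141 in Pars2 to 8.86 in Iars2.

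In most synthetases the change ran across the well-read junctions without a dropped value. Of the junctions with a mean of at least 20 reads and no dropped value, all were lower in knockout on average in Iars (29), Lars (31), Eprs (31), Tars (18), Gars (16), Farsb (16), Aars (16) and Aars2 (21). Sars went the other way, with 1 of 5 lower. In Lars, 30 of the 31 had every knockout library below every wild-type library, in Vars 11 of 11 and in Iars 9 of 29. In Hars, Dars and Lars2 the count was 0 of 12, 0 of 13 and 0 of 20. The share over all junctions is not given here, and junctions of the same gene are not separate replicates. The junctions of Rars2, the mitochondrial arginyl enzyme, scattered from -1.80 to 2.42 in log2(RPM + 0.05). Limma's diffSplice test took 292 junctions of 24 synthetases with a mean of at least 100 reads and no dropped value. Junctions with a dropped value, which fall short of their gene's other junctions in some library, were left out and are not covered. Of the 292 junctions, 0 were called as moving apart from the rest of their gene (adjusted p under 0.05 in 0.0311% of 35363 junctions). A single one, in Tars2, had an unadjusted p under 0.05 (log2 shift -1.40), and with a replicate block, a minimum of 50 reads or a pseudocount of 0.5 the count of calls was also 0. Calls were so rare over all junctions that a count of 0 is not a result about the synthetases.

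**Figure D4:**
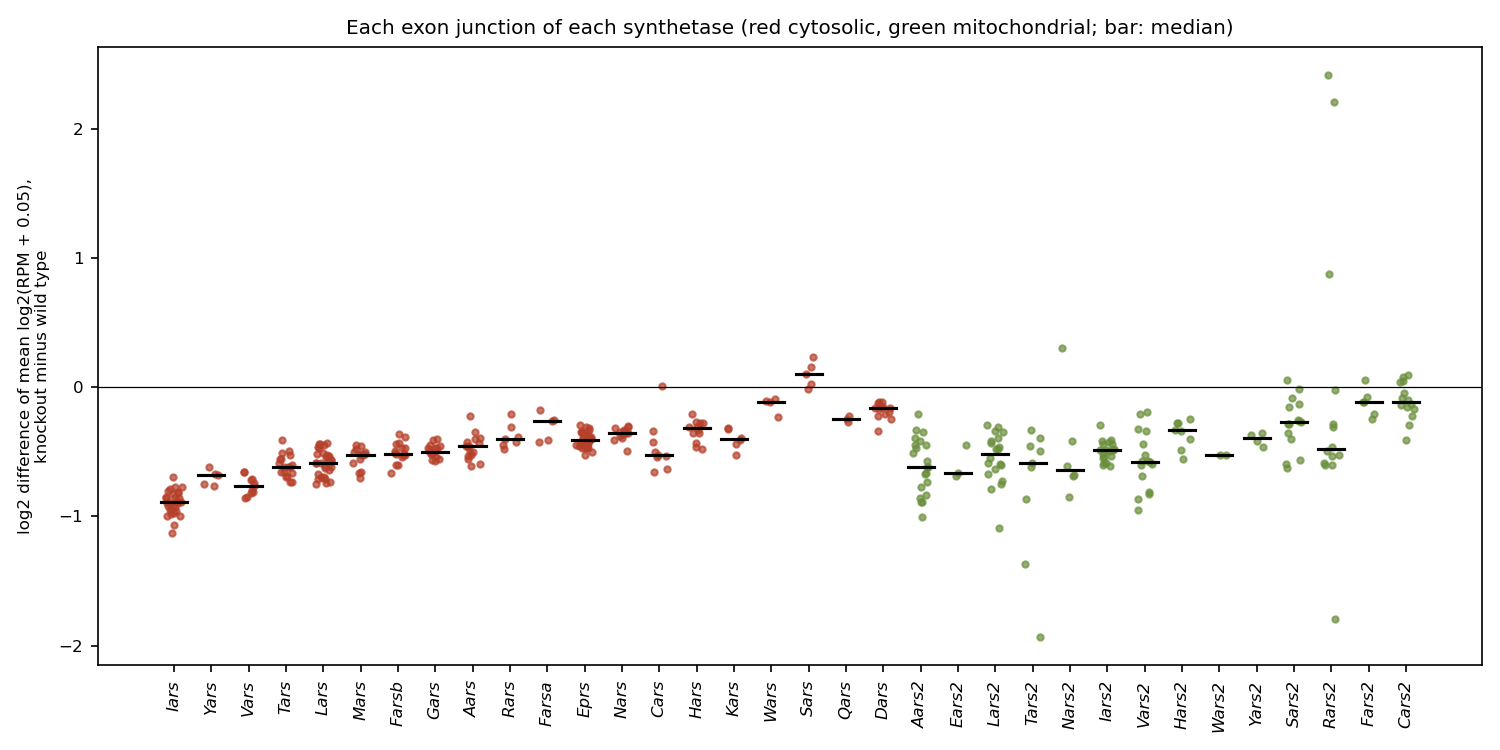
Difference of the mean log2(RPM + 0.05), knockout minus wild type, of each junction with a mean of at least 20 reads and no dropped value, in 20 cytosolic (red) and 14 mitochondrial (green) synthetases, with the median as a bar. Medians lie below 0 in each gene except Sars, and the highest points belong to Rars2, which reaches 2.42.

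Other genes of amino acid supply and tRNA charging were read beside the synthetases. In the list of the amino acid response driven by ATF4, 2 of 34 tested members rose and 6 fell, with a median of 0.10. The 17.6% that fell lay near the 12.1% over all genes, of which 8.49% rose, so the count is not a result about the list. Slc7a11, the cystine carrier, had 123, 143, 52.5 and 34.0 RPM in knockout libraries, against 8.82, 9.98, 9.95 and 9.10 RPM in wild-type libraries (log2 fold change 2.86, SE 0.42, adjusted p = 0.00438), with no overlap and the lowest knockout value in library 4. Slc3a2, the chain that Slc7a11 and other carriers pair with, rose by 0.51 (adjusted p = 0.0151) and was the other member that rose. Slc1a4, a carrier of small neutral amino acids, fell by 1.12 (adjusted p = 0.0109). Phgdh, the first enzyme of serine synthesis, fell by 0.74 and Shmt2, which makes glycine in mitochondria, by 0.95 (adjusted p 0.0123 and 0.00884). Mthfd2, of mitochondrial folate metabolism, fell by 0.66 (adjusted p = 0.0188, but 0.0526 and 0.0560 without knockout library 2 or wild-type library 2). Psat1, the next enzyme of serine synthesis, and the tRNA exporter Xpot fell by 0.67 and 0.48 (adjusted p 0.0253 and 0.0310); the first call held only without knockout library 4 or wild-type library 1 and the second only without knockout library 1 or 4 (adjusted p 0.0509 to 0.0809 otherwise). Atf4 itself had 253, 206, 171 and 209.6 RPM in knockout libraries, against 192, 215, 210.5 and 165 RPM in wild-type libraries (adjusted p = 0.671), with overlapping groups, and Asns, the asparagine synthetase, averaged 134 ± 44.4 and 176 ± 43.9 RPM (SD, n = 4 each) in knockout and wild-type libraries (adjusted p = 0.271).

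In the eIF2alpha kinase and GCN2 list 4 of 13 members fell (30.8%, against 12.1% of all genes) and 0 rose, with a median of -0.25. Gcn1l1, which activates GCN2 at ribosomes, fell by 0.52 (SE 0.10, adjusted p = 0.0107), and Eif2ak4, which encodes GCN2, by 0.45 (SE 0.11, adjusted p = 0.0257). Eif2s1, the gene of eIF2alpha, fell by 0.38 (adjusted p = 0.0283) and Eif2b5, of its exchange factor, by 0.42 (adjusted p = 0.0354). The calls of Eif2s1 and Eif2b5 held only without knockout library 4, and that of Eif2ak4 only without it or wild-type library 1 (adjusted p 0.0544 to 0.0925 over the 3 genes otherwise). Among scaffolds and partners of the synthetases, 3 of 18 fell and 0 rose (median -0.34), and this share of 16.7% lay near the 12.1% of all genes. Dtd1, which removes D-amino acids from tRNAs, fell by 0.78 (adjusted p = 0.0150). Gatb and Qrsl1, subunits of the mitochondrial amidotransferase that makes glutaminyl-tRNA, fell by 0.48 and 0.56 (adjusted p 0.0249 and 0.0363); the first call ended without knockout library 1 or 2 or wild-type library 3 or 4, and the second without each library other than knockout library 4 and wild-type library 1 (adjusted p 0.0571 to 0.0970). The scaffolds of the complex, Aimp1, Aimp2 and Eef1e1, had log2 fold changes of -0.22, -0.41 and -0.33 and were not called (adjusted p 0.139, 0.108 and 0.160).

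Genes that make and modify tRNAs gave 19 of 70 members lower (27.1%, against 12.1% of all genes) and 0 higher (median -0.36). Thada, a tRNA methyltransferase subunit, fell by 0.51 (adjusted p = 0.00738), Elp2 of the Elongator complex by 0.71 (0.0105), the exporter Xpo5 by 0.58 (0.0110) and Trmt6, of the tRNA m1A methyltransferase, by 0.50 (0.0137). In the list for RNA polymerase III, which transcribes tRNA genes, 6 of 29 fell (20.7%, against 12.1% of all genes) and 0 rose (median -0.26). Its subunit Polr3b fell by 0.48 (adjusted p = 0.00573), the TFIIIC subunits Gtf3c5 and Gtf3c3 by 0.63 and 0.52 (0.00738 and 0.0149), and Gtf3a by 0.46 (0.0335, but 0.0679 to 0.0907 without each library other than knockout library 4 and wild-type library 1).

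Of 11 elongation and related factors 4 fell (36.4%, against 12.1% of all genes) and 0 rose (median -0.34). Abce1, which recycles ribosomes, fell by 0.60 (adjusted p = 0.0126), and the release factor Gspt1 by 0.66 (0.0190, but 0.0587 without knockout library 3). Eef1d, an exchange factor subunit, fell by 0.36 (0.0398, a call that held only without knockout library 4, with adjusted p 0.0694 to 0.101 otherwise). Eef1b2, another subunit of that factor, stood at -1.65 on the log2 scale (adjusted p = 0.00609), but at -0.06 (adjusted p = 0.507) once junctions with dropped values were left out. Among mitochondrial translation factors 1 of 13 fell (7.69%, against 12.1% of all genes) and 0 rose (median -0.23). The gene that fell was Mrrf, the ribosome recycling factor (by 0.58, adjusted p = 0.0150). Mitochondrial ribosomal proteins gave 5 of 75 lower and 0 higher (median -0.25), Mrpl12 among them (by 0.54, adjusted p = 0.0150). Mrpl49, Mrpl9 and Mrpl42 fell by 0.47, 0.33 and 0.38 (adjusted p 0.0308, 0.0398 and 0.0400), and all 3 calls held without knockout library 4; they held otherwise only without knockout library 2 for Mrpl9 and wild-type library 1 for Mrpl42 (adjusted p 0.0583 to 0.104 elsewhere), and Mrpl49 was not called with the replicate number as a block (0.0538). The share of 6.67% that fell in this list stood below the 12.1% over all genes, while the shares of 33.3% and 55.0% in mitochondrial and cytosolic synthetases stood above it, and no test was made of these differences. Counts of the lists moved widely with the library left out: 1 to 10 mitochondrial ribosomal proteins, 8 to 24 tRNA processing genes and 3 to 10 polymerase III genes fell, each with the highest count without knockout library 4. Of the list genes named as changed, Xpot, Eif2b5, Eef1d, Mrpl49, Mrpl9 and Mrpl42 were not called under TMM scaling (adjusted p 0.0547 to 0.0871).

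**Figure D5:**
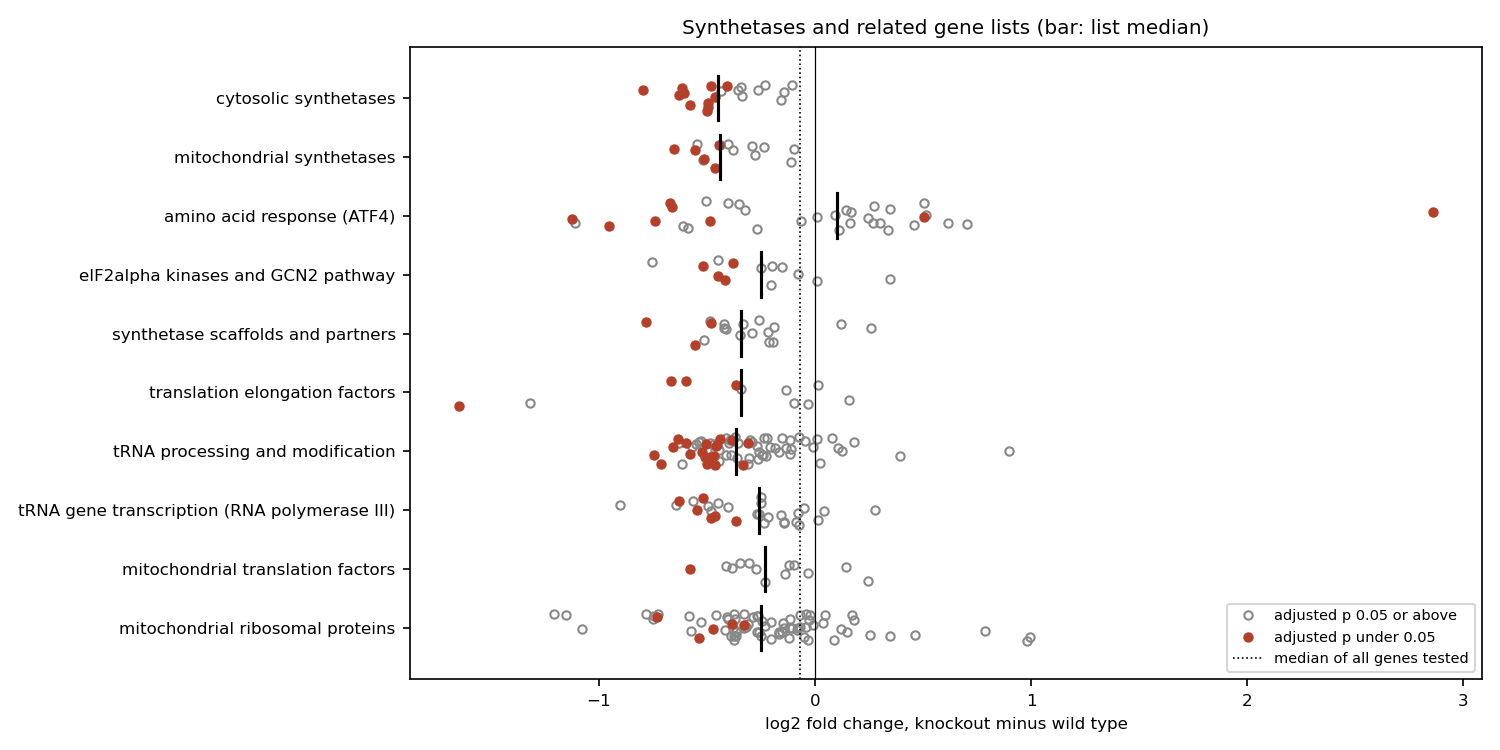
log2 fold change, knockout minus wild type, of each tested gene in the cytosolic and mitochondrial synthetases and 8 related lists; filled points have an adjusted p under 0.05, bars are list medians, and the dotted line is the median of all genes tested, -0.07. Both synthetase groups lie wholly below 0, and the list medians lie between -0.45 and 0.10.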

How the data were processed

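Total RNA was sequenced in 8 strand-specific libraries, 4 per group. Trimmomatic 0.39, kallisto and the build mm10 are named per the submitters' processing notes; of the aligner and junction filters nothing is stated in these sources. The deposited values are the authors' normalised signal per AltAnalyze junction (134051 junctions). Tested on the values, each was the reads plus 1, scaled by library total and a length of 60, with 0 reads at a floor of 0.854; solving for reads gave whole numbers for 100% of values above the floor (tolerance 0.001). As 0 reads share a floor, values were treated as a signal: reads were summed per gene, scaled to RPM and tested with limma 3.58.1 (trend and robust, log2(RPM + 1), mean of at least 1 RPM, Benjamini-Hochberg over 11003 genes). Fold changes understate those of low genes. Fragments that span several junctions count at each, and intervals for counting error were not formed. Symbols were matched for 13247 of 13378 genes; coordinates are from Gencode M21.

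Replicate numbers in the labels were checked as pairs: deviations of same-numbered libraries from their group means correlated at 0.32, 0.29, 0.36 and 0.55, against at most 0.15 between different numbers, so a blocked fit is given where it changes a call. The share of junction values that dropped to at most 6 reads did not separate the groups (exact permutation test, two-sided, p = 0.543; the smallest possible is 0.0286). The procedure was tested on simulated data. A mitochondrial enzyme that enters the counts and sums is not reported here by name. The members and gene lists were chosen with earlier results of these data known. Named were Cop1, every other synthetase, and per list up to 4 called members with the smallest adjusted p; Atf4, Asns, Slc3a2, Mthfd2, Psat1, Xpot, Retnlg, Camp, Cxcr2, Aimp1, Aimp2 and Eef1e1 were added after their values were seen. Alternatives covered pseudocount, filter, scaling, moderation, block, left-out libraries and junction choice.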

Additional observations from a re-analysis of the deposited data

Results flagged for a closer look

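In 6 of 76 groups of 4 libraries, over the synthetases and sums checked, the highest or lowest library stood apart from the other 3 by more than Dixon's 95% limit, where chance flags about 1 in 20. In knockout libraries, library 4 had 235 RPM of Hars, against 149 to 163 in the other 3, and 78.5 RPM of Lars2, against 31.4 to 36.0. In wild-type libraries, library 4 had 87.9 RPM of Lars2, against 52.8 to 56.3 in the other 3, so that the same number stood high in both groups. Wild-type library 1 was low for Farsa, at 68.1 RPM against 77.5 to 78.4, and for Tars, at 358 RPM against 418 to 430.4. Wild-type library 3 was high for Rars, at 204 RPM against 166 to 169. Without junctions that hold a dropped value, wild-type library 3 had 118 RPM of Rars, against 104 to 116 in the other wild-type libraries. Wild-type library 1 then had 29.0 RPM of Farsa, against 29.8 to 34.2. Hars, Lars2 and Tars hold no such junction. For Lars2 this says little, since the rule needs a prediction of at least 100 reads and its junctions averaged 31.9 to 79 reads. What set the flagged libraries apart was not tested.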

How the results depend on the processing

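Over all alternatives cytosolic synthetases called lower numbered 4 to 16 and mitochondrial ones 2 to 11, and 0 were called higher in any. TMM scaling gave 7 cytosolic calls. Mitochondrial calls numbered 9 without junctions that hold a dropped value, 11 with the replicate block as well, and 10 without both libraries numbered 4 as well; with these last settings all genes called numbered 4129 and 3637, against 2264. The replicate block alone called 9 cytosolic and 7 mitochondrial synthetases and 3084 genes, and changed no synthetase call besides those of Yars, Eprs, Nars2, Lars2, Tars2 and Vars2. Leaving out each library in turn gave 1215 to 2991 genes, 4 to 14 cytosolic and 2 to 6 mitochondrial synthetases. Signs turned for Sars (0.045 without dropped-value junctions and with the block as well, 0.12 with TMM as well, 0.028 on its most-read junction), Qars (-0.36 to 0.065 with each library left out, above 0 without knockout library 2) and Dars (0.019 without both libraries numbered 4). In Qars 13 of 23 junctions hold a dropped value. Without them its fold change was -0.25 (adjusted p = 0.145), with 60.2 ± 10.1 RPM in knockout and 71.0 ± 3.54 RPM in wild-type libraries (SD). Of the values of 34 single synthetases under an alternative, 650 kept direction and side of the threshold, 76 lost the call, 48 gained it and 6 turned. The cause was not tested. The knockout sum as a percent of the wild-type sum ran from 70.6% to 77.5% for cytosolic and from 72.7% to 79.7% for mitochondrial enzymes. Without dropped-value junctions the sums themselves were smaller, 4509 RPM in knockout and 6236 RPM in wild-type libraries for cytosolic enzymes. Planned count tests in edgeR and DESeq2 were not run, since the values are a signal with 0 reads at a floor; limma with voom weights was run instead, a setting chosen after seeing the data, as were 2 of the paired settings (junctions left out with both libraries numbered 4 or with TMM).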
